A study of Mus musculus with 15 samples.

Results

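The genes described here are the 4 mouse receptors for the Fc part of IgG (Fcgr1, Fcgr2b, Fcgr3 and Fcgr4), their signalling chain Fcer1g, and the Fc receptor-like gene Fcrla. They are 6 of the 19938 genes that had a probe set annotated to a single gene symbol. They were chosen by name, and each had 1 such probe set, so no choice between probe sets was needed. The probe sets were 10500335 (Fcgr1, on chromosome 3) and, all on chromosome 1, 10360028 (Fcgr2b), 10360040 (Fcgr3), 10351509 (Fcgr4), 10360070 (Fcer1g) and 10360018 (Fcrla).

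Fc receptors let a cell sense antibody bound to antigen. Fcgr1 is the high-affinity receptor, and Fcgr3 and Fcgr4 are activating receptors of lower affinity. All of these signal through the FcR gamma chain encoded by Fcer1g, a small membrane protein whose tyrosine motif (ITAM) is phosphorylated by Src-family kinases and then recruits the kinase Syk. Fcgr2b carries the opposite motif (ITIM), which recruits phosphatases and raises the threshold for activation. In dendritic cells (DCs) the balance of these receptors sets how immune complexes are taken up and whether they activate the cell. Fcrla is an atypical relative that stays inside the cell, is not known as a surface receptor, and is best known from B-lineage cells.

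RNA of cells sorted from the bone marrow of mice was hybridised to Affymetrix arrays. Common DC progenitors (CDPs), which give rise to plasmacytoid and classical DCs, were compared with Zbtb46-GFP+ c-Kit-intermediate cells, a later stage marked by a reporter for the classical DC factor Zbtb46. All groups carried the Zbtb46-GFP reporter. The WT cells and the cells lacking Id2 (Id2 KO), an inhibitor of E proteins, are labelled as taken from chimeric mice, and the cells lacking Batf3 (Batf3 KO), an AP-1 factor of the cDC1 lineage, from reporter mice. There were 15 arrays, 2 of CDPs and 3 of Zbtb46-GFP+ cells per genotype. The later cells were gated on the reporter and on c-Kit, and how many mice stand behind an array is not given in the sources used here, so p-values measure only the spread between these arrays, which may be technical. Chimeric or reporter origin cannot be told apart from the Batf3 genotype.

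The 3 Zbtb46-GFP+ arrays numbered replicate 1 had a median signal of only 23.8 to 24.1, where the median of the other 12 lay at 100.8 to 112.1, and they are described separately. The values below come from the 12 arrays, 2 per group, as linear signal per array or as log2 means ± SD (n = 2). The number of arrays limits the precision, and since the values carry no detection calls, a signal near or below its array's median may be background. As a check of the labels, Batf3 had log2 signals of 6.89 and 7.32 in Batf3 KO Zbtb46-GFP+ cells, 9.99 and 9.85 in WT and 8.21 and 8.38 in Id2 KO, and 6.87 to 7.25 on the 6 CDP arrays. Id2 had 8.39 and 8.82 in Id2 KO Zbtb46-GFP+ cells and 11.14 to 12 in the other genotypes, and in CDPs 7.08 and 5.96 in Id2 KO and 7.40 to 7.83 elsewhere. Xist differed from WT Zbtb46-GFP+ cells by -6.61 in Batf3 KO and -6.53 in Id2 KO, so the sex pattern cannot be told apart from genotype on these arrays. The summed signal of 6 markers of the later stage (Zbtb46, Cd74, H2-Aa, H2-Ab1, H2-Eb1 and Itgax) was 1347 to 2162 on CDP arrays and 36414 to 51402 on Zbtb46-GFP+ arrays. Of these markers 6 were called higher with stage in WT, 4 in Batf3 KO and 5 in Id2 KO, beside 4.71%, 3.87% and 3.84% of all genes. Zbtb46 itself rose in WT (log2 means of 6.0 and 7.08) and was not called in Batf3 KO (5.85 and 6.0) or Id2 KO (5.82 and 6.02), and Itgax was not called in Batf3 KO. The summed signal of 5 measured CDP markers ranged from 14489 to 18429 on CDP arrays and from 12041 to 15889 on Zbtb46-GFP+ arrays. Of these (Flt3, Csf1r, Kit, Irf8 and Cd34), 1 was called higher and 2 lower with stage in every genotype. Over all genes 6.38%, 3.32% and 2.98% were called lower in WT, Batf3 KO and Id2 KO. In WT, log2 means went from 11.42 to 8.99 for Cd34, 11.14 to 9.11 for Csf1r and 9.71 to 11.21 for Kit. The brightest, Irf8, had 12.78 and 12.88.

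To show what the start sites of the genes have in common, the 100 bases before each start site are given below from the RefSeq promoter table (GRCm38.p6), read on the gene's strand from 5′ to 3′. Capitals mark the letters TTCCTC, whose reverse complement holds the GGAA core that Ets factors such as PU.1 and Spib recognise. PU.1 is a regulator of myeloid Fc receptor genes, and Spib one of plasmacytoid DCs and B cells.
Fcgr1, chr3:96293970-96294069, minus strand: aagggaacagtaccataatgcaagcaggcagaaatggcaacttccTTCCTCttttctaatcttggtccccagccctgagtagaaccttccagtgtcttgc
Fcgr3, chr1:171059404-171059503, minus strand: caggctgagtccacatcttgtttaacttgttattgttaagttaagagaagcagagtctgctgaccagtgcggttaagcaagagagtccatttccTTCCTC
Fcgr4, chr1:171018826-171018925, plus strand: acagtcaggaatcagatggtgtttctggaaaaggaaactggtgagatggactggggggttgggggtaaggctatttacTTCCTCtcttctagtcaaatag
Fcrla, chr1:170927584-170927683, minus strand: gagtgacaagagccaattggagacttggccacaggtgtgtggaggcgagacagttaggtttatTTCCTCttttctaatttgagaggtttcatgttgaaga
Fcgr2b, chr1:170976072-170976171, minus strand: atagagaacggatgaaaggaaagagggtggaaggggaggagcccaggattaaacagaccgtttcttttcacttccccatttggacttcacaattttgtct
Fcer1g, chr1:171234350-171234449, minus strand: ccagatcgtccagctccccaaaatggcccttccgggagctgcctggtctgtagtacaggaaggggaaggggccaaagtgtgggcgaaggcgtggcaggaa

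The first 4 of these windows hold the capitals and the last 2 do not. The shorter core GGAA also occurs in the last 2, so the split holds for TTCCTC only. On the gene's strand the match lay 55 to 50 bases before the start in Fcgr1, 6 to 1 in Fcgr3, 22 to 17 in Fcgr4 and 37 to 32 in Fcrla. Searched on both strands of the 250 bases before the start, TTCCTC was found in 4 of the 6 genes and in 23.3% of 32851 such windows in the table. For Fcgr3, the table lists 2 start sites and the first was used.

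The letters around the match were longer alike in 3 genes. The stretch TTCCTCTNTTCTA, where N is any base, occurred in 10 windows of the table (0.0304%), those of Fcgr1, Fcgr4 and Fcrla included. Its longer form TTCCTCTTTTCTAAT, 15 bases and the longest stretch common to Fcgr1 and Fcrla, occurred in 3 windows (0.00913%), those 2 genes included. Between other pairs of the 6 genes the longest common stretch had 7 to 10 bases. Both stretches were read from these windows and chosen after they were seen, so their counts are descriptions. A match is not a bound site.

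Other motifs were searched in the same windows, both strands together. The core of the interferon response element, 2 copies of GAAA with any 2 bases between them, which interferon regulatory factors such as Irf8 recognise, was present in Fcgr4, 73 to 64 bases before the start, and in Fcrla, 192 to 183 bases before it, against 2.98% of all windows. TGANTCA, the core of sites for AP-1 factors such as Batf3 dimers, was in none of the 6 windows and in 6.75% of all. CANNTG, the E-box of the E proteins that Id2 restrains, was in 5 of the 6, all but Fcgr3, and in 66.2% of all windows. Fcrla had 4 E-box matches.

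**Figure D1:**
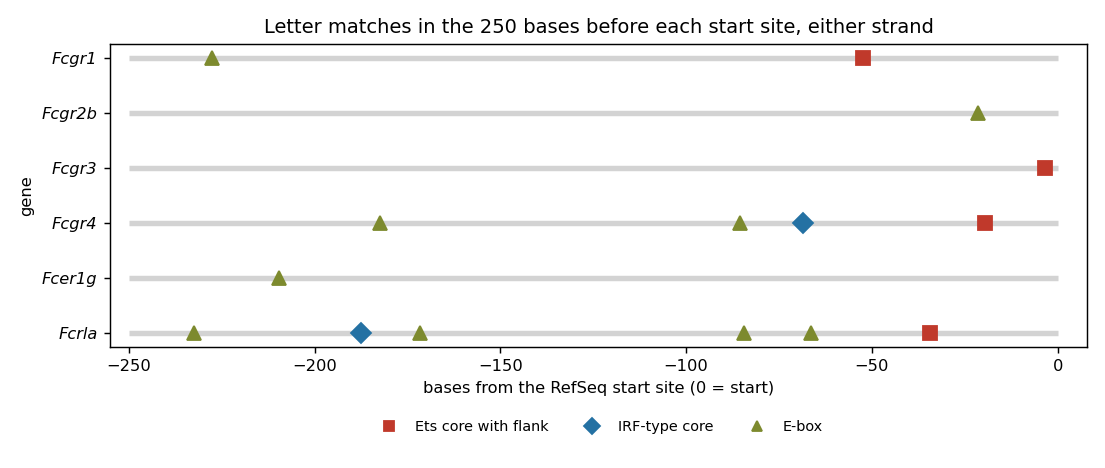
Positions of letter matches (points) in the 250 bases before the RefSeq start site of each gene, either strand, with distance from the start in bases on the horizontal axis. Squares mark TTCCTC (Fcgr1, Fcgr3, Fcgr4 and Fcrla), diamonds the interferon response element core (Fcgr4 and Fcrla) and triangles CANNTG (all but Fcgr3).

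From CDP to Zbtb46-GFP+ cells, 3 of the 6 genes rose in every genotype: the activating receptor Fcgr4, the inhibitory receptor Fcgr2b and Fcrla. The calls of Fcrla in Batf3 KO and of Fcgr2b in Id2 KO depended on single arrays, as given below. The signalling chain Fcer1g was bright in every group, and Fcer1g, Fcgr1 and Fcgr3 did not pass the test with stage in any genotype. The 3 risers were counted against 4.71% of all genes called higher and 6.38% called lower in WT (11.1% in all), with limma at an adjusted p under 0.05. In Batf3 KO 3.87% of genes were called higher and 3.32% lower (7.18% in all), and in Id2 KO 3.84% and 2.98% (6.82%). The median log2 change of the 6 genes was 0.66 in WT, 0.67 in Batf3 KO and 0.52 in Id2 KO, beside 0.03, 0.01 and 0.01 over all genes. In bulk samples a smaller share of expressing cells and less RNA per cell cannot be told apart.

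**Figure D2:**
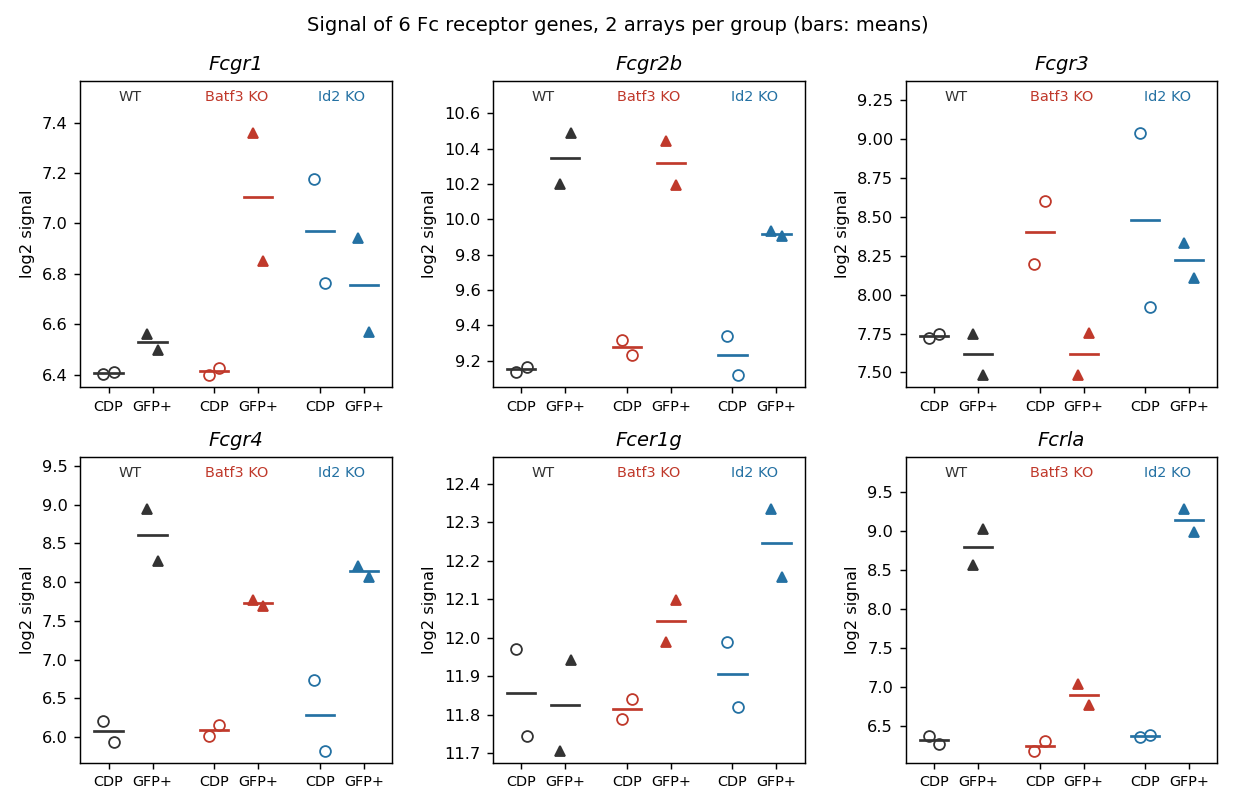
Log2 signal of each gene on the 12 arrays of common scale (points: arrays, with circles for CDPs and triangles for Zbtb46-GFP+ cells; bars: means of 2 arrays), by genotype, with a separate vertical range for each gene. Fcrla in Batf3 KO Zbtb46-GFP+ cells (109 and 131 in linear signal) sits between the CDP arrays and the Zbtb46-GFP+ arrays of the other genotypes.

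Fcer1g, the gamma chain that Fcgr1, Fcgr3 and Fcgr4 need at the surface, had signals of 4010 and 3433 at the CDP stage of WT and 3342 and 3937 at the later stage. In Batf3 KO it had 3537 and 3668 in CDPs and 4066 and 4380 in Zbtb46-GFP+ cells, and in Id2 KO 4067 and 3616 in CDPs and 5166 and 4573 in Zbtb46-GFP+ cells. Every array was far above its median signal, and the highest 2 were those of Id2 KO Zbtb46-GFP+ cells. The log2 change with stage was -0.03 in WT, 0.23 in Batf3 KO and 0.34 in Id2 KO (95% interval 0.03 to 0.65, adjusted p = 0.233).

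In order of mean log2 signal, Fcer1g ran from Batf3 KO CDPs (11.81 ± 0.04), WT Zbtb46-GFP+ cells (11.82 ± 0.17), WT CDPs (11.86 ± 0.16) and Id2 KO CDPs (11.90 ± 0.12) to Batf3 KO (12.04 ± 0.08) and Id2 KO (12.25 ± 0.12) Zbtb46-GFP+ cells. The first 4 overlapped. Id2 KO minus WT in Zbtb46-GFP+ cells was 0.42 (95% interval 0.11 to 0.74, adjusted p = 0.26), which did not pass. The arrays did not overlap, which says little with 2 per group. Those of Fcgr1, Fcgr2b, Fcgr3 and Fcgr4 did not overlap there either, and none of these genes passed. The share of all genes without overlap was not counted, so this is no result about these genes. With the 2 array sets described further on as a block, an alternative chosen after seeing the data, Fcer1g passed (adjusted p = 0.0493). So did Fcgr2b in the same comparison (-0.43, adjusted p = 0.0376). All 6 groups of Fcer1g spanned 0.43 log2 units, at percentile 68.5 of such spans over all genes.

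Fcgr4, an activating receptor that binds IgG2a and IgG2b and is known from monocytes, macrophages and neutrophils, had signals of 73.8 and 61.5 in WT CDPs, below the array medians. In WT Zbtb46-GFP+ cells it had 493 and 308. The Batf3 KO pairs were 64.8 and 71.4 in CDPs and 219 and 207 in Zbtb46-GFP+ cells, and the Id2 KO pairs 107 and 56.7, then 297 and 268. In each genotype both later arrays were above both CDP arrays, and the CDP arrays of the 3 genotypes overlapped.

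The rise of Fcgr4 was 5.79-fold in WT (log2 change 2.53, SE 0.28, adjusted p = 1.69e-04), 3.13-fold in Batf3 KO (1.65, adjusted p = 0.00418) and 3.62-fold in Id2 KO (1.86, adjusted p = 0.00225). With 5 of the 6 CDP signals below their array medians, these folds are between measured signals and may understate the rise, and they give no order of the genotypes. Group means ran from 6.07 ± 0.19 (WT), 6.09 ± 0.10 (Batf3 KO) and 6.28 ± 0.65 (Id2 KO) in CDPs to 7.73 ± 0.06 (Batf3 KO), 8.14 ± 0.11 (Id2 KO) and 8.61 ± 0.48 (WT) in Zbtb46-GFP+ cells. Both knockouts had lower means than WT at the later stage, and neither difference passed: -0.87 in Batf3 KO (95% interval -1.49 to -0.26, adjusted p = 0.57) and -0.47 in Id2 KO (-1.08 to 0.14, adjusted p = 0.775). No Fcgr4 array of either knockout reached the WT arrays. The WT pair itself differed by more than the Id2 KO mean differed from it.

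Fcgr3, the activating receptor that mast cells, NK cells and neutrophils also carry, had 211 and 215 at the CDP stage of WT and 214 and 179 at the later stage. Batf3 KO gave 293 and 388 in CDPs and 179 and 216 in Zbtb46-GFP+ cells. Id2 KO gave 525 and 242 in CDPs and 322 and 276 in Zbtb46-GFP+ cells. All 4 knockout CDP arrays were above both WT CDP arrays, with the Id2 KO pair spread more than 2-fold, while the later Batf3 KO arrays overlapped those of WT.

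For Fcgr3 no comparison passed. In CDPs the log2 difference from WT was 0.66 in Batf3 KO (95% interval 0.02 to 1.31) and 0.74 in Id2 KO (0.10 to 1.39), each with an adjusted p of 1. Its change with stage was -0.12 in WT, -0.78 in Batf3 KO (95% interval -1.42 to -0.14, adjusted p = 0.167) and -0.26 in Id2 KO. The Batf3 KO change passed without either Id2 KO CDP array (adjusted p = 0.0225 each). Group means ran from 7.62 ± 0.18 (WT) and 7.62 ± 0.19 (Batf3 KO) in Zbtb46-GFP+ cells through 7.74 ± 0.02 in WT CDPs and 8.22 ± 0.16 in Id2 KO Zbtb46-GFP+ cells to 8.40 ± 0.29 and 8.48 ± 0.79 in Batf3 KO and Id2 KO CDPs. The 3 highest means did not differ beyond their spread. Fcgr2b and Fcgr3 have closely similar extracellular parts, and whether the probes of one also catch the other's transcript was not tested. Their signals correlated at r = -0.48 over the 12 arrays.

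Beside Fcgr3, the array with its highest signal, Id2 KO CDP replicate 1, also had the highest log2 signal of the neutrophil granule gene Elane (11.15) and of the basophil protease gene Mcpt8 (10.59). Elane is among the genes most correlated with Fcgr3 over the 12 arrays (r = 0.74), so its peak there is not separate evidence. The summed signal of 9 mast cell and basophil markers was 1552 to 3825 in Id2 KO CDPs, against 870 to 1302 in WT CDPs and 795 to 1347 in Batf3 KO CDPs. Of the defining markers, Ms4a2, Cd200r3 and Il4 were below the array median on all 12 arrays. The sum of 10 neutrophil markers was 17791 to 27130 in Id2 KO CDPs, 16056 to 19177 in WT CDPs and 13538 to 15904 in Batf3 KO CDPs. In Zbtb46-GFP+ cells the neutrophil sum was 41186 to 42848 in Id2 KO, 22143 to 30553 in Batf3 KO and 16395 to 17625 in WT. The mast cell and basophil sum there was 2341 to 2987, 984 to 1198 and 624 to 1230 in the same order. The Fcgr3 signals there were 322 and 276 in Id2 KO, 179 and 216 in Batf3 KO and 214 and 179 in WT. Against WT there, 1 of 10 neutrophil markers was called higher in Id2 KO and 1 in Batf3 KO (median log2 changes 1.38 and 0.56). Of 9 mast cell and basophil markers, 1 and 0 were called higher (medians 0.49 and 0.09). Over all genes 1.09% and 0.11% were called higher. In CDPs, 0 markers of either list were called in either knockout. Such sums weigh the brightest genes most. The part of mast cells, basophils and neutrophils in the Fcgr3 values was not tested.

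Fcgr1, the high-affinity receptor of monocytes and macrophages, was dim. It had 84.5 and 85.0 in WT CDPs, 84.3 and 86.1 in Batf3 KO CDPs and 94.3 and 90.2 at the later stage of WT, all below the median of their arrays. Higher values came from Batf3 KO Zbtb46-GFP+ cells (164 and 116), Id2 KO CDPs (145 and 109) and, on 1 of its 2 arrays, Id2 KO Zbtb46-GFP+ cells (123 and 95). These 3 groups overlapped one another.

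The group means of Fcgr1 ran from 6.41 ± 0.01 in WT CDPs, 6.41 ± 0.02 in Batf3 KO CDPs and 6.53 ± 0.04 in WT Zbtb46-GFP+ cells to 6.76 ± 0.26 (Id2 KO Zbtb46-GFP+), 6.97 ± 0.29 (Id2 KO CDP) and 7.11 ± 0.36 (Batf3 KO Zbtb46-GFP+). The change with stage in Batf3 KO was 0.69 (95% interval 0.26 to 1.12, adjusted p = 0.0589). It passed with 75th percentile centring (adjusted p = 0.0332), with the dimmest genes left out (0.0446), with the replicate block (0.0162) and with the array sets as a block (0.00742). It also passed without Batf3 KO Zbtb46-GFP+ replicate 3 (0.0355) and without either Id2 KO CDP array (0.0445 each). The differences from WT, 0.58 for Batf3 KO in Zbtb46-GFP+ cells (adjusted p = 0.639) and 0.57 for Id2 KO in CDPs (adjusted p = 1), did not pass.

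Marker levels are given beside Fcgr1 as a description. The sum of 12 monocyte and macrophage markers was 16710 to 17146 in Batf3 KO Zbtb46-GFP+ cells, 13319 to 14648 in WT and 13829 to 13842 in Id2 KO, and 10476 to 12609 over all CDP arrays. Of these markers, the macrophage gene Adgre1 was the only 1 called in Batf3 KO against WT Zbtb46-GFP+ cells (1.56, adjusted p = 0.0181), against 0.336% of all genes. The median log2 change of the 12 markers there was only 0.04, beside 0.01 over all genes. Vcan and Mertk were below the array median on all 12 arrays. Prg2, the eosinophil major basic protein, had log2 signals of 8.83 on Batf3 KO Zbtb46-GFP+ replicate 2 and 8.90 on Id2 KO CDP replicate 1, the arrays with the highest Fcgr1, and 5.88 to 7.06 elsewhere. Prg2 was on none of the marker lists. It was named as the gene most correlated with Fcgr1 over the 12 arrays (r = 0.90), so its peaks on those arrays follow from that choice. The part of monocytes, macrophages and eosinophils in the Fcgr1 values was not tested.

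Fcgr2b, the inhibitory receptor, had signals of 562 and 574 at the CDP stage of WT and 1177 and 1436 at the later stage. In Batf3 KO the pairs were 637 and 602, then 1394 and 1172, and in Id2 KO 648 and 556, then 977 and 959. All 6 later arrays were above all 6 CDP arrays, and those of Id2 KO were the lowest of the later ones.

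The rise of Fcgr2b was 2.29-fold in WT (log2 change 1.195, SE 0.15, adjusted p = 3.59e-04), 2.07-fold in Batf3 KO (1.05, adjusted p = 0.00134) and 1.61-fold in Id2 KO (0.69, adjusted p = 0.0158). The Id2 KO rise lost its call without Id2 KO CDP replicate 2 (0.58, adjusted p = 0.0912) and without Id2 KO Zbtb46-GFP+ replicate 2 (0.68, 0.117) or replicate 3 (0.70, 0.0976). Group means were 9.15 ± 0.02 (WT), 9.23 ± 0.16 (Id2 KO) and 9.27 ± 0.06 (Batf3 KO) in CDPs, then 9.92 ± 0.02 (Id2 KO), 10.32 ± 0.18 (Batf3 KO) and 10.34 ± 0.20 (WT). The Batf3 KO and WT means of the later stage differed by -0.02 (95% interval -0.35 to 0.30). Id2 KO minus WT was -0.43 (-0.75 to -0.11, adjusted p = 0.271), and the difference between the WT and Id2 KO rises was -0.51 (-0.96 to -0.05, adjusted p = 0.887). Neither passed.

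Fcrla, the intracellular relative, had the widest span of group means of the 6 genes, 2.89 log2 units at percentile 99.4 of such spans over all genes, with Fcgr4 at percentile 99.1. It had 82.9 and 77.5 at the CDP stage of WT and 381 and 525 at the later stage. Id2 KO gave 82.1 and 83.6 in CDPs and 625 and 509 in Zbtb46-GFP+ cells. Batf3 KO gave 72.8 and 79.1 in CDPs and only 131 and 109 in Zbtb46-GFP+ cells. All CDP arrays were below their medians, and the WT pair overlapped both knockout pairs, while the Batf3 KO pair lay below the Id2 KO pair. The later WT and Id2 KO arrays overlapped, and both Batf3 KO arrays lay below them.

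The rise of Fcrla was 5.58-fold in WT (log2 change 2.48, SE 0.17, adjusted p = 7.96e-06) and 6.81-fold in Id2 KO (2.77, adjusted p = 9.56e-06). In Batf3 KO it was 1.58-fold (0.66, SE 0.17, adjusted p = 0.0446). All CDP signals of Fcrla were below their array medians, so these folds are between measured signals and may understate the rises and the differences between them. This last call held in 2 of the 12 fits that left out an array, those without either WT Zbtb46-GFP+ array. Without either WT CDP array the adjusted p was 0.0579, without either Id2 KO CDP array 0.0548, and without either Id2 KO Zbtb46-GFP+ array 0.0573. It was 0.268 and 0.127 without Batf3 KO CDP replicate 1 or 2, and 0.262 and 0.0827 without Batf3 KO Zbtb46-GFP+ replicate 2 or 3. It was also lost with the replicate block (0.67, adjusted p = 0.116).

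Against WT at the later stage, Fcrla was 3.74-fold lower in Batf3 KO (log2 difference -1.90, SE 0.17, 95% interval -2.28 to -1.52, adjusted p = 3.52e-04). It was the only 1 of the 6 genes called there, against 0.226% of all genes called lower, 0.11% called higher and 0.336% in either direction. Id2 KO minus Batf3 KO was 2.24, or 4.72-fold (95% interval 1.86 to 2.62, adjusted p = 3.04e-04), again the only call among the 6, against 0.261% of genes called higher, 0.331% called lower and 0.592% in either direction. In Id2 KO against WT the difference was 0.34 (-0.05 to 0.72, adjusted p = 0.659). These comparisons share arrays with one another and with the stage comparisons. The Batf3 KO signals stood close to their array medians (131 against 105.4 and 109 against 110.9), so both folds may be understated. The calls of Fcrla in Batf3 KO against WT and in Id2 KO against Batf3 KO held in all 12 fits that left out an array.

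The difference between the Batf3 KO and WT rises of Fcrla was itself tested as the interaction of genotype with stage. It was -1.82 (SE 0.25, 95% interval -2.36 to -1.28, adjusted p = 0.0211), the only call among the 6 genes, against 0.0802% of all genes called lower, 0.015% called higher and 0.0953% in either direction. The call was lost in 7 of the 12 fits that left out an array. Without WT CDP replicate 1 or 2 the adjusted p was 0.0798 and 0.136, and without WT Zbtb46-GFP+ replicate 3 it was 0.0619. Without Batf3 KO CDP replicate 1 or 2 it was 0.121 and 0.132, and without Batf3 KO Zbtb46-GFP+ replicate 2 or 3 it was 0.0546 and 0.128. The value itself stayed between -2.05 and -1.59.

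Fcrla is best known from B-lineage cells, and 11 B-cell and B-progenitor markers were measured beside it. Their summed signal was 885 to 931 in WT Zbtb46-GFP+ cells, 1055 to 1331 in Batf3 KO and 1418 to 1495 in Id2 KO, and 1255 to 1784 on CDP arrays. Cd79a, Ms4a1, Pax5, Ebf1 and Vpreb3 were below the array median on all 12 arrays. The sum of 8 cDC1 markers was 13928 to 16236 in WT Zbtb46-GFP+ cells, 4277 to 4492 in Batf3 KO and 2673 to 2998 in Id2 KO. They were Xcr1, Clec9a, Tlr3, Cadm1, Naaa, Itgae, Cd36 and Batf3. Batf3 is the gene removed in Batf3 KO, so its own drop follows from the genotype (log2 means of 9.92 in WT and 7.1 in Batf3 KO). Fcrla was lower than WT in Batf3 KO and not in Id2 KO, while 6 and 7 of the 8 cDC1 markers were called lower in those knockouts. Over all genes 0.226% and 0.717% were called lower there. The sum of 7 plasmacytoid DC markers was 3907 to 5561 in WT Zbtb46-GFP+ cells, 6013 to 9260 in Batf3 KO and 16361 to 18047 in Id2 KO. In Id2 KO against WT 5 of the 7 were called higher, against 1.09% of all genes. The part of these cell types in the Fcrla values was not tested.

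**Figure D3:**
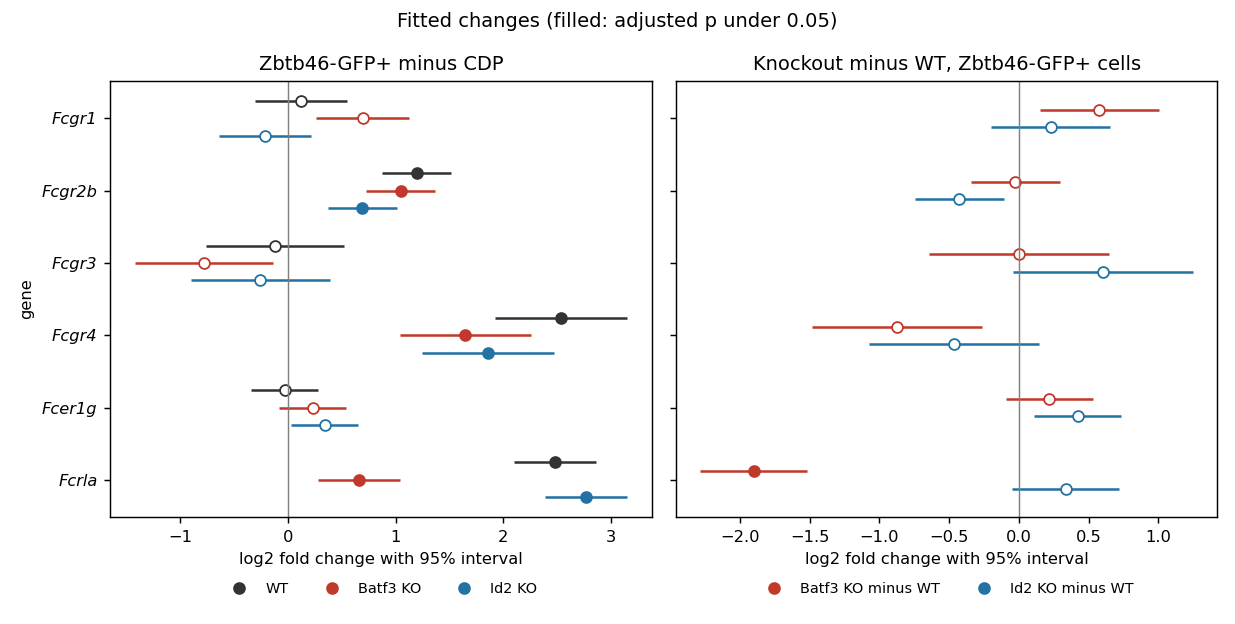
Fitted log2 fold changes (points) with 95% intervals (lines) for the 6 genes, on the left for Zbtb46-GFP+ minus CDP in each genotype and on the right for each knockout minus WT in Zbtb46-GFP+ cells. Filled points passed an adjusted p under 0.05: Fcgr2b, Fcgr4 and Fcrla on the left in every genotype and, on the right, Fcrla in Batf3 KO (-1.90).

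Against WT, Id2 KO gave no call among the 6 genes. In Zbtb46-GFP+ cells limma called 0 of 6 where 1.81% of all genes were called (1.09% higher and 0.717% lower). Of the 6, 2 (Fcgr2b and Fcer1g) had an unadjusted p under 0.05, as did 1852 of all 19938 genes. In the interaction of Id2 KO with stage, 0 of 6 were called against 0.321% of genes (0.115% higher and 0.206% lower). There 1 of the 6 (Fcgr2b) and 960 of all 19938 genes had an unadjusted p under 0.05. In CDPs, limma called 0 of 6 in Batf3 KO against WT, where 0.0502% of all genes were called (0.0351% higher and 0.015% lower). It called 0 of 6 in Id2 KO against WT, where 0.0251% were called (0.0201% higher and 0.00502% lower). At an unadjusted p under 0.05 there were 1 (Fcgr3) and 2 (Fcgr1 and Fcgr3), beside 257 and 126 of all 19938 genes. The 95% intervals of Fcrla in CDPs were -0.46 to 0.30 in Batf3 KO and -0.34 to 0.43 in Id2 KO, and those of Fcgr2b -0.20 to 0.45 and -0.24 to 0.40.

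Within each group 1 array had the higher and 1 the lower 75th percentile of signal, and arrays of like position deviated together (residual correlations of 0.35 to 0.68). Compared within these 2 sets, higher then lower, the rise of Fcrla was 2.66 and 2.30 in WT, 0.85 and 0.46 in Batf3 KO, and 2.93 and 2.61 in Id2 KO. Its difference between Batf3 KO and WT in Zbtb46-GFP+ cells was -2.00 and -1.81. The rise of Fcgr4 in WT was 2.06 and 3.00, and its Batf3 KO difference from WT -0.49 and -1.26. The rise of Fcgr2b in Id2 KO was 0.59 and 0.79. For Fcgr3, Id2 KO minus WT in CDPs was 1.31 in the higher set and 0.17 in the lower.

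The replicate 1 arrays of the Zbtb46-GFP+ groups, 1 per genotype, allow no test and have no CDP array on their scale. On them 54.0% of all probe sets had identical values in the 3 genotypes. Fcgr2b was identical on all 3 (84.6). Fcgr3 was 25.5 in WT and Batf3 KO and 26.8 in Id2 KO, and Fcgr1 was 27.6 in WT and 27.9 in both knockouts. Fcrla was 38.4 in WT and Id2 KO and 31.4 in Batf3 KO, a log2 difference of -0.29 in the direction of the 12 arrays.

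For Fcgr4 in both knockouts, and for Fcer1g in Id2 KO, these arrays went the other way. Fcgr4 was 14.3 in WT, 19.1 in Batf3 KO and 22.9 in Id2 KO, all below the array medians, so the log2 differences from WT were 0.42 and 0.68 where the 12 arrays gave -0.87 and -0.47. Fcer1g was 1221 in WT, 1522 in Batf3 KO and 632 in Id2 KO, a log2 difference of -0.95 for Id2 KO where the 12 arrays gave 0.42. For Batf3 KO it was 0.32, in the direction of the 12 arrays (0.22). With these arrays in the fit and a term for their scale, Fcrla in Batf3 KO against WT was -1.37 and lost its call (adjusted p = 0.22), while Id2 KO against Batf3 KO kept it (adjusted p = 0.0431). The WT and Id2 KO rises of Fcrla and the rises of Fcgr4 and Fcgr2b in every genotype kept their calls, and the Batf3 KO rise of Fcrla did not (adjusted p = 0.0908).

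Of 14 other listed receptors for immunoglobulin and their relatives, 13 were measured. With stage, 2 were called higher and 0 lower in WT, 2 and 0 in Batf3 KO, and 1 and 0 in Id2 KO, where 4.71%, 3.87% and 3.84% of all genes were called higher. The median log2 change was 0.16, 0.24 and 0.08, beside 0.03, 0.01 and 0.01 over all genes. Fcrl1, a B-cell receptor of the same family as Fcrla, rose by 1.48 in WT (adjusted p = 0.00276) and 2.01 in Batf3 KO (adjusted p = 6.67e-04). Fcer2a, the low-affinity IgE receptor CD23, was called higher by 0.61, 0.70 and 1.06. Its log2 group means, 5.32 to 6.38, were below the array medians at both stages, so its signal may be background. Fcrlb, the closest relative of Fcrla, changed by 0.10, 0.15 and 0.02 and did not pass, nor did the alpha chain of the high-affinity IgE receptor, Fcer1a (0.35 in WT). In Batf3 KO and Id2 KO against WT at the later stage, limma called 0 of the 13, with 1 and 2 at an unadjusted p under 0.05. Over all genes 0.336% and 1.81% were called there, and 887 and 1852 of 19938 had an unadjusted p under 0.05.

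Among receptors that pair with the FcR gamma chain, and its sister ITAM adaptors, 17 of 20 listed genes were measured, and 6 rose and 0 fell with stage in WT, 5 and 0 in Batf3 KO, and 6 and 0 in Id2 KO. Over all genes 4.71%, 3.87% and 3.84% were called higher. The median change was 0.11, 0.15 and 0.32, beside 0.03, 0.01 and 0.01 over all genes. Clec4b1, a lectin receptor of DCs, rose by 4.64, 3.36 and 2.797 in WT, Batf3 KO and Id2 KO. The rise of Clec4a3, its neighbour in the same lectin family, was 1.96, 1.09 and 1.44, and that of Cd300c2 1.76, 1.70 and 1.63. Pirb (2.39, 2.32 and 2.402) carries inhibitory ITIMs, so its rise is not that of a gamma chain partner. Tyrobp (DAP12), the sister adaptor of Fcer1g, changed by -0.01, 0.15 and 0.42 and did not pass. Siglech, a plasmacytoid DC receptor that signals through Tyrobp, was the only listed gene called in a knockout against WT, at 3.07 in Id2 KO (adjusted p = 0.00641). In Zbtb46-GFP+ cells 0.336% of all genes were called in Batf3 KO against WT and 1.81% in Id2 KO. Lists and members were compared with limma only gene by gene.

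Of 40 listed genes of Fc receptor signalling 38 were measured, with 5 higher and 1 lower with stage in WT, 3 and 0 in Batf3 KO, and 8 and 0 in Id2 KO. Over all genes 4.71% were called higher and 6.38% lower in WT, 3.87% and 3.32% in Batf3 KO, and 3.84% and 2.98% in Id2 KO. The median change was 0.11, 0.12 and 0.14, beside 0.03, 0.01 and 0.01 over all genes. The Src-family kinase Fgr rose by 2.39, 2.32 and 3.41 (adjusted p = 0.00388, 0.00663 and 8.02e-04) and Pik3r5, a regulatory subunit of PI3-kinase gamma, by 1.32, 1.29 and 1.13. The kinase Tec fell by 0.97 in WT (adjusted p = 0.00779). In Id2 KO the adaptor Blnk rose by 1.78 and was higher than WT at the later stage by 1.98 (adjusted p = 0.0213), while Vav3 was lower (-0.82, adjusted p = 0.0121). Blnk is also among the B-lineage markers above, as Siglech is among those of plasmacytoid DCs. The genes named next were picked for their roles after their values were seen. Syk, the kinase that reads the ITAM, changed by 0.17 in WT and 0.21 in Batf3 KO, which did not pass, and rose by 0.65 in Id2 KO (adjusted p = 0.0493). Inpp5d, the phosphatase recruited by Fcgr2b, changed by 0.54, 0.35 and 0.23 and did not pass (adjusted p = 0.0505 in WT).

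**Figure D4:**
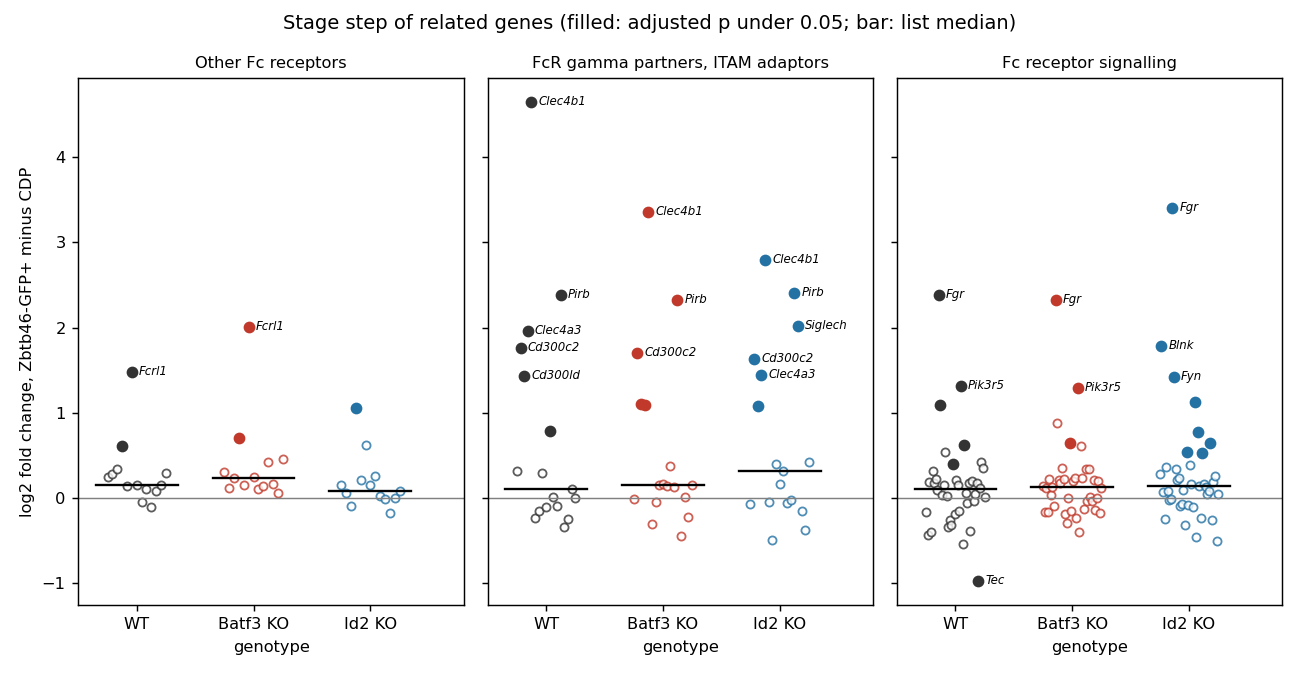
Log2 change from CDP to Zbtb46-GFP+ cells for each measured gene (points) of 3 lists of related genes, by genotype, with list medians as bars and filled points for an adjusted p under 0.05. Clec4b1 (4.64 in WT) leads the gamma chain list and Fgr (3.41 in Id2 KO) the signalling list, while most points lie near 0.

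Fcrla, Fcgr2b, Fcgr4 and Fcgr3 lie next to one another, in this order, on chromosome 1 in the RefSeq table (GRCm38.p6, used for order only). The first 3 rose with stage, and Fcgr3 at the end of the row did not pass. On the side of Fcrla, Fcrlb, Dusp12 and Atf6 did not pass in any comparison, and Olfml2b rose with stage in Id2 KO (0.91, adjusted p = 0.00263). In Zbtb46-GFP+ cells Olfml2b was higher in Id2 KO than in WT (0.86, adjusted p = 0.00898) and than in Batf3 KO (0.94, adjusted p = 0.0145), while its interaction of Id2 KO with stage did not pass (0.98, adjusted p = 0.0819). Beyond Fcgr3, Cfap126, Sdhc, Nr1i3 and Tomm40l did not pass, and Pcp4l1 fell with stage in WT (-1.34, adjusted p = 0.00206) and in Id2 KO (-0.84, adjusted p = 0.0405).

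Among the 1566 genes whose group means spanned at least 1 log2 unit, those most like each of the 6 were named by Pearson's r over the 12 arrays, which share groups, scale and sort, so that any gene with a stage difference correlates with any other. Fcrla was most like Dab2 (r = 0.96), Cd200 (0.96) and Nek6 (0.96). Dab2 had means of 6.35 and 8.35 at the earlier and later stage of WT, 6.06 and 7.0 in Batf3 KO, and 6.54 and 9.33 in Id2 KO. Fcgr4 was most like Anxa1 (0.98), Clec4b1 (0.98) and Clec4a3 (0.97), and Fcgr2b like Krt80 (0.99), Sdc3 (0.99) and Bcl6 (0.99). Bcl6 had 6.88 and 9.19 in WT, 7.09 and 9.19 in Batf3 KO, and 6.89 and 8.55 in Id2 KO.

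The genes not called with stage had matches of lower r. Fcer1g was most like Calm4 (r = 0.89), Cd300lf (0.89) and Ceacam1 (0.89), Fcgr1 like Prg2 (0.90), Xdh (0.81) and Sqor (0.81), and Fcgr3 like Ly6a2 (0.80), Hp (0.77) and Elane (0.74). Between the 6 genes themselves, r was highest for Fcgr2b with Fcgr4 (0.90), Fcgr4 with Fcrla (0.86) and Fcgr2b with Fcrla (0.69), and the other 12 pairs lay between -0.48 and 0.50.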

How the data were processed

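The deposited values are intensity, the linear probe set signal that the authors summarised with RMA in Affymetrix Expression Console, per the submitters' processing notes, which give no versions or settings. Total RNA of cells sorted on a FACSAria was labelled with an Affymetrix WT Pico kit, per the labels' protocols. The signals were never negative and reached 21042, so log2 was taken.

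Of 28853 probe sets, 21789 had a single symbol, 1621 several and 5443 none. The brightest single-symbol probe set stood for each gene. A model of 6 group means on 12 arrays was fitted with limma 3.58.1 in R 4.3.3 (empirical Bayes without trend, two-sided, Benjamini-Hochberg adjustment over 19938 genes in each of 10 comparisons, threshold 0.05) and tested on simulated data. All 6 genes are named in every comparison, each with its 3 most correlated genes, and, in a comparison, at most 4 called genes of a list with the largest change. Tyrobp, Syk, Inpp5d and single marker genes were named after their values were seen. The genes, lists and settings were chosen with earlier results of these data known. Alternatives were other arrays, scalings, filters, probe set rules, blocks and arrays left out. Replicate numbers did not pair the arrays across all groups: residual correlations of equal numbers ran from -0.63 to 0.68. They were 0.53 to 0.68 between CDP groups and 0.48 between Batf3 KO and Id2 KO Zbtb46-GFP+ cells. Equal numbers lay in the same array set there.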

Additional observations from a re-analysis of the deposited data

Results flagged for a closer look

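The change of Fcrla with stage differed between Batf3 KO and WT: the interaction was -1.82 (limma, SE 0.25, adjusted p = 0.0211), with a rise of 2.48 in WT and 0.66 in Batf3 KO. In Zbtb46-GFP+ cells both Batf3 KO arrays (131 and 109) were below both WT arrays (381 and 525). Groups of 2 arrays on a common scale are too small to test for single arrays far from the others.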

How the results depend on the processing

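Of 60 results (6 genes in 10 comparisons), 12 were called. All 12 kept their call under 75th percentile centring, quantile normalization, removal of the dimmest genes, the mean of probe sets and the array set block (chosen after seeing the data), 11 with the replicate block, which lost the Batf3 KO rise of Fcrla (0.67, adjusted p = 0.116), and 9 in every fit without an array. The mean of probe sets could not change the values of these genes, each with 1 probe set. Removal of the dimmest genes also left their values as they were, so both say little about these calls. Of the uncalled results, 21 changed sign in some alternative. With all 15 arrays and no term, 0 of the 12 kept their call and 0 of 6 genes were called in any comparison. The rise of Fcgr2b turned to -0.12, -0.26 and -0.48 in WT, Batf3 KO and Id2 KO. In those fits the median of all genes with stage moved to between -0.70 and -0.67. The replicate block on 15 arrays (0 called in any comparison, median -1.07 to -1.04) gave -0.75, -0.89 and -1.12, with Fcgr4 at -0.10 and Fcrla at -0.50 in the Batf3 KO step. A term for the 3 arrays left 0 called in Batf3 KO against WT at the later stage and in its interaction with stage. The array set block called 2 in Id2 KO against WT. Without single arrays the interaction count ran from 0 to 1. The cause was not tested.

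Over all genes the WT step had 2212 calls (940 higher, 1272 lower), 2011 (1153 and 858) with 75th percentile centring, 1183 without WT CDP replicate 1, 4829 with the array set block, 25 with the replicate block on 15 arrays and 1 with 15 arrays and no term. The Batf3 KO step had 1432, and 642 to 827 without 1 of its own arrays. The Id2 KO step had 1359, and 488 to 765 without its CDP replicate 1 or a later array. Batf3 KO against WT at the later stage had 67, and 33 and 39 without a Batf3 KO array, 29 with the term, 118 after quantile normalization and 250 with the array set block. Id2 KO against WT had 361, and 139 and 120 without an Id2 KO array, 207 with the term, 555 with the replicate block, 669 after quantile normalization and 1212 with the array set block. Id2 KO against Batf3 KO had 118, and 36 to 54 without a later knockout array, 251 after quantile normalization and 506 with the array set block. The Batf3 KO interaction had 19, and 41 without WT Zbtb46-GFP+ replicate 2, 7 to 11 without any other WT or Batf3 KO array, 12 with 75th percentile centring, 8 with the term and 42 with the array set block. The Id2 KO interaction had 64, and 21 to 37 without WT CDP replicate 1, Id2 KO CDP replicate 1 or a later Id2 KO array, 42 without WT CDP replicate 2, 20 with the term, 120 with the replicate block, 175 after quantile normalization and 373 with the array set block. The Batf3 KO and Id2 KO steps had 2352 and 2372 after quantile normalization and 3487 and 3234 with the array set block. The background share beside each count moves with these. The number of arrays, and signals near or below the array median for Fcgr1, for Fcgr4 and Fcrla in CDPs, and for Fcrla in Batf3 KO Zbtb46-GFP+ cells, limit the smallest change that can be seen.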
